A study of Mus musculus with 53 samples.

Results

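Lungs of mice that had breathed cigarette smoke for 12 weeks and then room air for 12 weeks were compared with lungs of mice kept on forced air, the sham procedure, for 24 weeks. The samples were chosen by their group labels alone, 6 arrays of smoke-to-room-air mice and 6 of forced air mice, which are 12 of the 53 arrays of the series. All were female C57BL/6 mice from the Jackson Laboratory, a common inbred strain, and each mouse gave 1 array from its small lung lobe. Exposed mice breathed 4% mainstream cigarette smoke through a nose-only device, 2 hours daily on 5 days of each week. Forced air mice went through the same nose-only procedure with air in place of smoke. The treatment protocol speaks of sham exposure after smoke, whereas the group labels name room air, and the labels were followed here. Smoke history and the end of the chamber procedure therefore differ together between both groups and cannot be told apart in this comparison, since no mice breathed room air alone for 24 weeks. Further groups serve to place the values: 6 mice with the same smoke history followed by 12 weeks of forced air (smoke-to-forced-air mice), 6 mice with 24 weeks of smoke, 5 mice with 12 weeks of smoke, 6 mice with 12 weeks of forced air, and 6 untreated mice. The age label carries the exposure time, and neither the age at the start nor the hour at which the lungs were taken is given.

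The values are Affymetrix Mouse 430 2.0 signals, a linear brightness per probe set on which each array has the same trimmed mean. A change is the difference of group means of log2(signal + 16), smoke to room air minus forced air, and it understates the change of dim probe sets. Signals of different genes come from different probes and are not set against each other. A gene was called when limma's test, adjusted by the Benjamini-Hochberg method over all 15030 genes, gave an adjusted p under 0.05.

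The lung runs its own circadian clock. The factors Arntl (also called BMAL1) and Clock or Npas2 bind E-box sequences together and switch on the Per and Cry genes, whose proteins in turn hold that complex back, so that both arms swing in opposite phase over the day. Smoke in the mouse lung is known above all for drawing in macrophages and neutrophils, and restraint is known as a stressor that raises glucocorticoid.

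Of 15030 genes tested, 2273 were called (15.1% of all), 1475 higher (9.81%) and 798 lower (5.31%) in smoke-to-room-air mice. Most changes were small: 31 genes were higher and 15 lower by a log2 change of at least 1, and the median absolute change of called genes was 0.32. The median change over all genes was 0.01. All 6 arrays of one group lay above all 6 of the other for 926 genes (6.16%), 597 of them higher (3.97%) and 329 lower (2.19%). Lung markers were present throughout. The signal of Sftpc, surfactant protein C, ran from 2748 to 2976 (median 2877) in smoke-to-room-air mice and from 2671 to 2951 (median 2869) in forced air mice, and Ager of alveolar type 1 cells, Sftpb, the club cell gene Scgb1a1, Foxj1 of ciliated cells and the endothelial gene Pecam1 were called present on all 12 arrays, with no call between groups.

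Between 73.9% and 75.9% of probe sets were detected in smoke-to-room-air mice and between 71.4% and 75.2% in forced air mice, and the 3′/5′ ratio of Gapdh, a sign of RNA quality, was 1.40 to 1.68 in smoke-to-room-air and 1.46 to 1.53 in forced air mice. A pair of arrays stood apart. Smoke-to-room-air replicate 4 was the highest of its group for 25 of the 30 genes that had risen at least 4-fold after 12 weeks of smoke, with a median log2 difference of 1.14 from the forced air mean, against 0.12 to 0.40 in the other 5. Forced air replicate 4 had a summed signal of 14626 over 21 adipocyte and brown fat genes, against 6269 to 7159 in the other 5 forced air mice, and was also the highest of its group over 19 B cell markers, at 8522 against 3653 to 5060. Without both arrays 1810 genes were called, 1220 higher and 590 lower. The sample titles end in a number of unstated meaning, and its 3 ranges hold 2, 2 and 2 smoke-to-room-air arrays and 4, 2 and 0 forced air arrays. Within the first range (2 arrays against 4) 1597 genes were called, and within the second (2 against 2) 195 were. The plot of both gene sets by mouse shows these arrays.

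**Figure D1:**
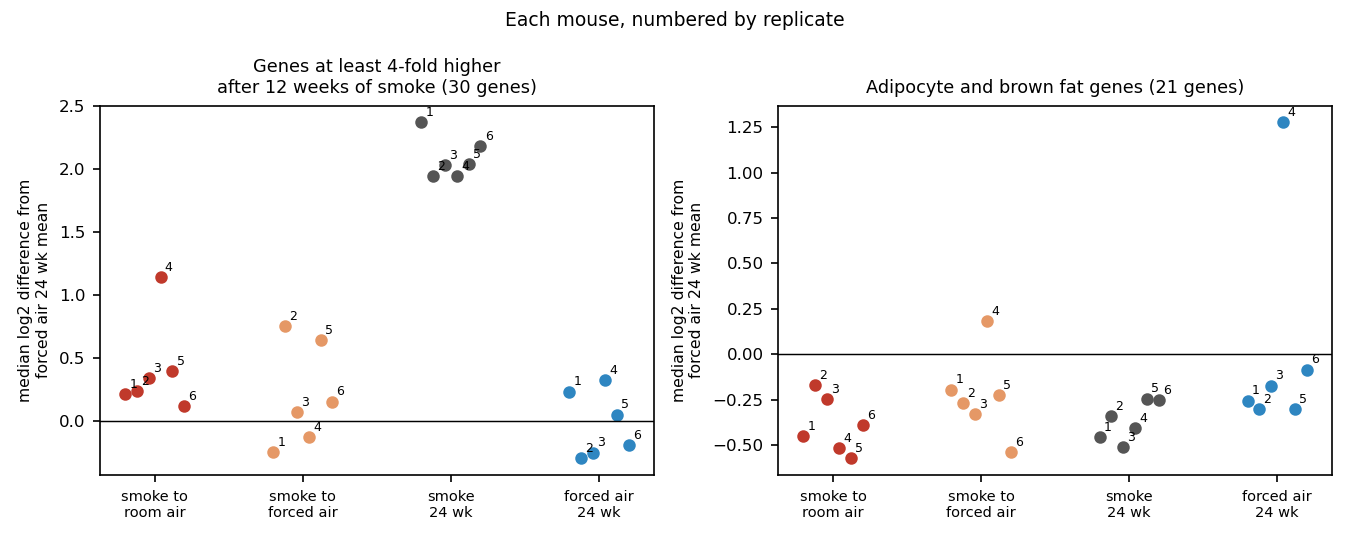
Median log2 difference of each mouse from the forced air 24 week mean (vertical axis) over the 30 genes that rose at least 4-fold after 12 weeks of smoke (left) and over 21 adipocyte and brown fat genes (right), with points numbered by replicate in 4 groups. Smoke-to-room-air replicate 4 sits at 1.14 on the left, above the other 5 of its group (0.12 to 0.40), and forced air replicate 4 sits at 1.28 on the right, above all others.

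Clock genes held the largest changes in both directions, and the arms of the loop moved opposite ways. Of 13 core clock genes tested 3 rose and 8 fell in smoke-to-room-air mice (median change -0.34), and of 14 clock output genes 2 rose and 10 fell (median -0.66), set against 9.81% and 5.31% over all genes. Without both arrays that stood apart the counts were the same, and leaving out any single array left 7 or 8 core genes lower and 3 higher. The hour of collection of each mouse is not known, so its part in these differences was not tested.

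Promoters of 4 clock genes that fell and that hold a matching sequence element are printed here, since the clock loop is known to act through these elements. They are RefSeq sequences of the assembly GRCm38.p6, 250 bases before to 50 bases after the gene start, 5′ to 3′ on the gene's strand. Capitals mark the E-box CACGTG, bound by Arntl and its partner, or, for Per3, the D-box core TTATGTAA, bound by Dbp, Tef and Hlf. Both strands were searched. The region of Per1 is chr11:69098699-69098998 on the plus strand, that of Cry1 chr10:85185005-85185304 on the minus strand, that of Ciart chr3:95882179-95882478 on the minus strand and that of Per3 chr4:151044616-151044915 on the minus strand.
Per1: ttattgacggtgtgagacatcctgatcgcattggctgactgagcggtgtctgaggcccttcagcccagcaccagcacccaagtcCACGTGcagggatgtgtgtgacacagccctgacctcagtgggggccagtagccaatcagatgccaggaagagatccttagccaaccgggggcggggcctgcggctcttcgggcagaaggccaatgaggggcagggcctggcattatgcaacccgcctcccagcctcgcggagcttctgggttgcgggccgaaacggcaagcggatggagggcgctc
Cry1: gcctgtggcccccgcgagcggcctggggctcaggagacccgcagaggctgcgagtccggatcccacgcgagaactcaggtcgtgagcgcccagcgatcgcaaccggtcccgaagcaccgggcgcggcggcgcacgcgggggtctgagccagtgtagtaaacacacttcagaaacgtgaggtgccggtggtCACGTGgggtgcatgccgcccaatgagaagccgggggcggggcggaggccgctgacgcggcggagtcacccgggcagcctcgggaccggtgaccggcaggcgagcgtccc
Ciart: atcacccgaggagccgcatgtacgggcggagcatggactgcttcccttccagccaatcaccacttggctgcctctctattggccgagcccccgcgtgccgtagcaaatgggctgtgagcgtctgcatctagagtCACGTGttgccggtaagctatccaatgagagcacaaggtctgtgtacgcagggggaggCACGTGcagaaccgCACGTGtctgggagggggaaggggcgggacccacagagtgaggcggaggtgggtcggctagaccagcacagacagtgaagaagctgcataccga
Per3: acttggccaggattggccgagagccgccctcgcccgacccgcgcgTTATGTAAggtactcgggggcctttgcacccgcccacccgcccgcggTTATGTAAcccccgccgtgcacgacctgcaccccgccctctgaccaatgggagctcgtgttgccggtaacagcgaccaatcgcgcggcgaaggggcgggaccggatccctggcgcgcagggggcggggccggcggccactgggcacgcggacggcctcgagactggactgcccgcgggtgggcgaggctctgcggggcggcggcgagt

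The first E-box letter lies 166 bases before the printed start of Per1 and 60 bases before that of Cry1, and Ciart holds 3 matches. Per1 has 2 listed promoters, and the E-box stands in 1 of them, the one printed. Per3 holds 2 D-box cores, the first 205 bases before the start. The E-box stands in 7.15% of the 32851 promoters in the table. It stood in 2 of 18 promoters of the core clock genes (Per1 and Cry1, with 11 of 13 genes in the table) and in 6 of 14 promoters of the clock output genes (of Bhlhe41, Ciart, Coq10b, Tef and Tspan4). The D-box core stands in 0.938% of all promoters. It stood in 1 of 18 promoters of the core clock genes (Per3) and in 1 of 14 of the clock output genes (Coq10b). A match of letters in such a window does not show binding.

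Of the activating arm, Arntl (Entrez gene 11865) ran from 155.3 to 227.2 (median 214.9) in smoke-to-room-air mice, against 28.39 to 48.30 (median 39.87) in forced air mice. The groups did not overlap, and the lowest smoke-to-room-air mouse lay above every forced air mouse by a wide margin. The change was 1.99 (SE 0.15, limma adjusted p = 1.17e-14), a 3.99-fold rise. Npas2 (Entrez gene 18143), the partner of Arntl that can stand in for Clock, was at 219.3 to 360.6 (median 285.2) in smoke-to-room-air mice and 57.26 to 100.6 (median 75.57) in forced air mice. Its change was 1.72 (SE 0.14, adjusted p = 5.19e-13), again with no overlap. Clock itself rose less, by 0.28 (SE 0.06, adjusted p = 0.000477), with medians of 583.4 in smoke-to-room-air and 488.2 in forced air mice and no overlap.

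Of the restraining arm, Per2 (Entrez gene 18627) had signals of 144.3 to 210.5 (median 192.7) in smoke-to-room-air mice, against 716.6 to 959.3 (median 800.0) in forced air mice. Every smoke-to-room-air mouse lay far below every forced air mouse, and the fall was the largest of all genes called (log2 -2.09, SE 0.12, adjusted p = 4.28e-19, 4.25-fold). Per3 ran from 304.9 to 441.3 (median 405.0) in smoke-to-room-air mice and from 971.2 to 1093 (median 1010) in forced air mice (log2 -1.35, SE 0.09, adjusted p = 1.88e-16). Per1 ran from 61.14 to 138.2 (median 89.53) in smoke-to-room-air mice and from 171.6 to 308.5 (median 252.0) in forced air mice (log2 -1.26, SE 0.23, adjusted p = 9.02e-05). Neither gene overlapped between groups. The cryptochrome genes followed, Cry1 with a change of -0.92 (SE 0.11, adjusted p = 6.65e-08) and Cry2 with -0.55 (SE 0.07, adjusted p = 1.45e-07), both without overlap. Nr1d2, a repressor of Arntl, fell by 0.59 (SE 0.07, adjusted p = 3.23e-09), while its relative Nr1d1 had a change of -0.34 that missed the threshold (SE 0.15, adjusted p = 0.119).

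The output genes encode the factors through which the clock acts on other genes. Dbp, Tef and Hlf, the factors of the D-box, all fell without overlap. Dbp (Entrez gene 13170) was at 141.1 to 287.1 (median 194.4) in smoke-to-room-air mice and 437.8 to 659.4 (median 604.0) in forced air mice (log2 -1.44, SE 0.14, adjusted p = 1.73e-10). Hlf was at 61.53 to 101.7 (median 96.23) in smoke-to-room-air mice and 237.4 to 317.8 (median 258.2) in forced air mice (log2 -1.45, adjusted p = 4.33e-11). Tef fell by 0.85 (SE 0.09, adjusted p = 1.16e-09). Nfil3, which competes with them for the same element, moved the other way (log2 0.70, SE 0.14, adjusted p = 0.000277), with medians of 85.65 in smoke-to-room-air and 40.89 in forced air mice and 5 of 6 smoke-to-room-air mice above every forced air mouse. Wee1, a cell cycle kinase under clock control, fell by 1.21 (SE 0.11, adjusted p = 6.48e-12), the clock repressor gene Ciart by 1.05 (adjusted p = 4.32e-07), the tetraspanin gene Tspan4 by 1.14 (adjusted p = 4.05e-14) and the deubiquitinase gene Usp2 by 0.70 (adjusted p = 0.00044). Sphk2, a sphingosine kinase gene that lies next to Dbp in RefSeq's order, fell by 1.55 (adjusted p = 6.97e-11), but 1 of its other probe sets was called in the opposite direction.

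**Figure D2:**
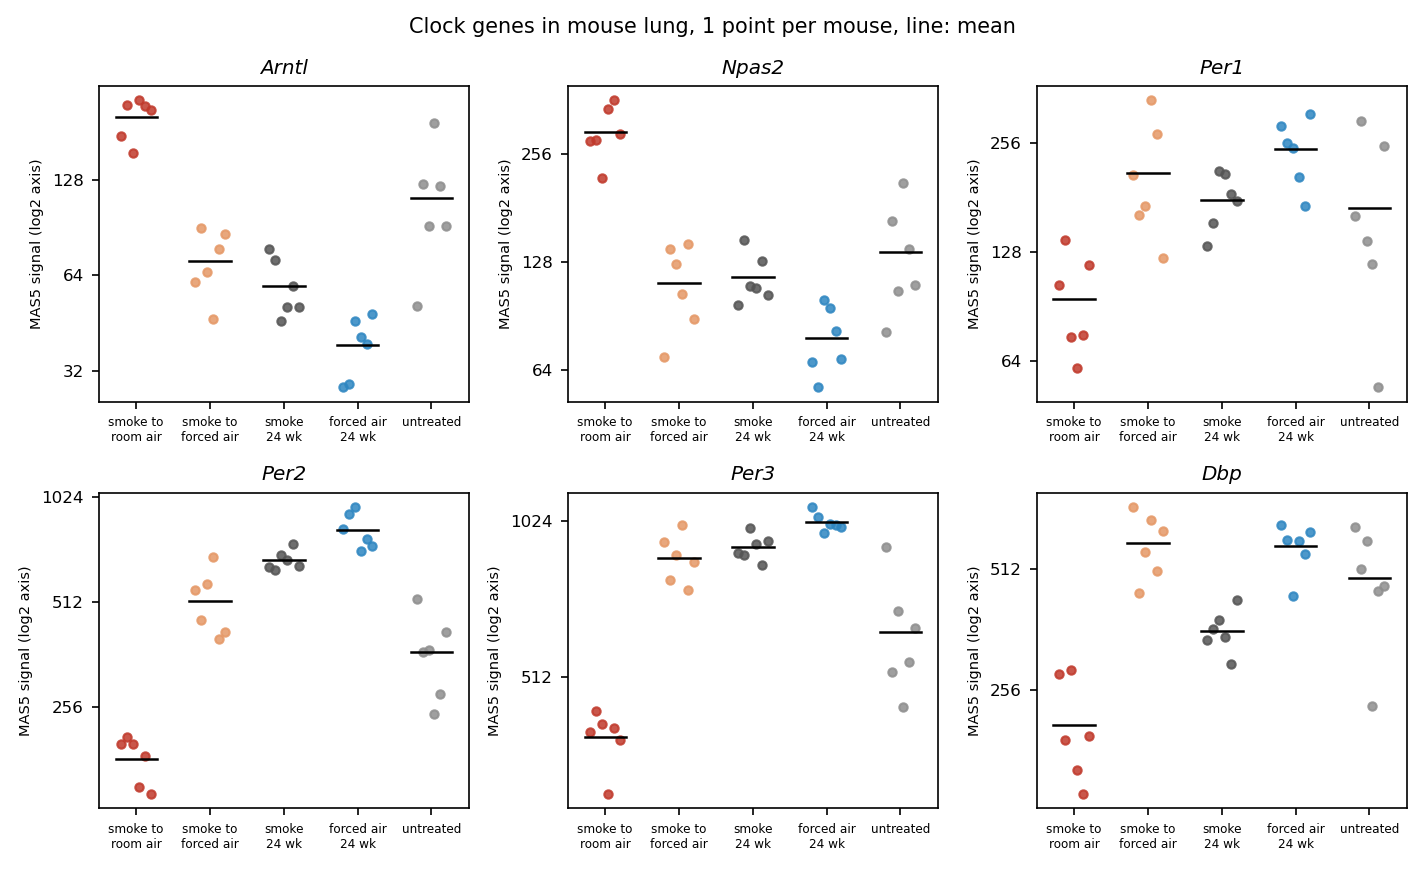
MAS5 signal of 6 clock genes (vertical axes, log2 scale), 1 point per mouse and a line at the mean, in smoke-to-room-air, smoke-to-forced-air, 24 week smoke, 24 week forced air and untreated mice. Arntl and Npas2 are highest and Per2, Per3 and Dbp lowest in smoke-to-room-air mice, with no overlap with forced air mice.

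The clock difference was also present against mice of the same smoke history. Smoke-to-room-air mice differed from smoke-to-forced-air mice in 146 genes (0.971% of those tested), 69 higher (0.459%) and 77 lower (0.512%), and 2 core clock genes were among the higher and 6 among the lower. The count was 92 to 151 when 1 array was left out, with 92 without smoke-to-forced-air replicate 4, and 260 with the title number ranges as a block, and a fit of the compared groups alone gave 107 higher and 63 lower. This comparison shares the smoke-to-room-air arrays with the one above. Arntl was higher by 1.33 (adjusted p = 7.96e-09) and Npas2 by 1.30 (adjusted p = 5.45e-09), while Per2 was lower by 1.41 (adjusted p = 1.77e-12), Per3 by 1.12 (adjusted p = 7.18e-13), Dbp by 1.46 (adjusted p = 3.21e-10) and Sphk2 by 1.57 (adjusted p = 1.37e-10). Mean Per2 signals were 182.1 ± 27.998 (SD, n = 6) in smoke-to-room-air mice, 515.3 ± 110 (n = 6) in smoke-to-forced-air mice and 675.4 ± 43.5 (n = 6) in 24 week smoke mice, and untreated mice averaged 368.3 ± 99.9 (n = 6). All untreated mice lay between both groups for Per2. For Arntl their mean of 112.3 ± 47.8 (n = 6) did, but 1 untreated mouse, at 193.5, was within the smoke-to-room-air range. Within single ranges of the title number the Per2 change was -2.16 in each of both ranges that hold both groups (adjusted p = 3.56e-06 and 9.93e-08), and that of Arntl was 1.91 and 2.11 (adjusted p = 3.46e-05 and 2.57e-05).

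Of 21 glucocorticoid response genes tested 12 fell and 0 rose (median change -0.38, and 9 to 13 fell when 1 array was left out), against 5.31% lower and 9.81% higher over all genes. Fkbp5, a chaperone partner that tempers the glucocorticoid receptor, ran from 60.76 to 95.96 (median 72.42) in smoke-to-room-air mice and from 107.9 to 188.5 (median 158.8) in forced air mice. The groups did not overlap (log2 -0.88, SE 0.13, adjusted p = 2.41e-06). Tsc22d3, the glucocorticoid-induced leucine zipper gene, was at 715.6 to 981.5 (median 844.6) in smoke-to-room-air mice and 1180 to 1646 (median 1324) in forced air mice, also without overlap (log2 -0.70, SE 0.11, adjusted p = 6.81e-06). The transcription factor genes Klf15 (log2 -0.91, adjusted p = 4.19e-06) and Zbtb16 (log2 -1.18, SE 0.37, adjusted p = 0.0209) and the kinase gene Map3k6 (log2 -1.09, adjusted p = 0.000507) fell too. Zbtb16 was variable, from 175.2 to 603.0 in smoke-to-room-air and from 451.4 to 1356 in forced air mice, and its call was lost without forced air replicate 2 or 3 or smoke-to-room-air replicate 5 (adjusted p up to 0.0839). Per1 belongs to this list as well as to the clock. Against smoke-to-forced-air mice 3 members of the list were lower and 1 higher, Fkbp5 among the lower (log2 -0.59, adjusted p = 0.00727), and untreated mice had a mean Fkbp5 signal of 80.17 ± 13.9 (n = 6).

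Of 18 heat shock and cold-inducible genes tested 7 fell, 1 rose and 10 were not called (median change -0.26), against 5.31% lower and 9.81% higher over all genes. Hspa1a and Hspa1b, the inducible Hsp70 chaperones, are near-identical copies whose probe sets may share signal. Hspa1a (Entrez gene 193740) was at 17.36 to 50.89 (median 28.86) in smoke-to-room-air mice and 46.75 to 214.6 (median 138.6) in forced air mice, with 5 of 6 smoke-to-room-air mice below every forced air mouse (log2 -1.58, SE 0.31, adjusted p = 0.000198). Hspa1b had a change of -1.29 (SE 0.30, adjusted p = 0.00146). Their co-chaperones Dnajb1 (log2 -0.81, adjusted p = 0.000213) and Dnaja1 (log2 -0.65, adjusted p = 0.000671) and the Hsp90 co-chaperone gene Chordc1 (log2 -0.60, adjusted p = 1.76e-07) fell with no overlap. Cirbp, an RNA-binding protein made in mild cold, ran from 235.4 to 337.7 (median 304.2) in smoke-to-room-air mice and from 112.1 to 201.6 (median 179.5) in forced air mice (log2 0.72, SE 0.12, adjusted p = 2.48e-05), again with no overlap. None of the 18 was called against smoke-to-forced-air mice, where the Hspa1a change was -0.61 (adjusted p = 0.531) and 1451 of all genes had an unadjusted p under 0.05. Within the second title number range the Hspa1a change of -1.02 was not called (adjusted p = 0.356).

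Of 28 extracellular matrix and protease genes tested 13 rose, 1 fell and 14 were not called (median change 0.26, and 11 to 16 rose when 1 array was left out). Of all genes 9.81% were called higher and 5.31% lower. Eln (Entrez gene 13717), which encodes elastin, was at 432.9 to 574.3 (median 486.4) in smoke-to-room-air mice and 155.2 to 253.6 (median 189.4) in forced air mice. All smoke-to-room-air mice lay well above all forced air mice (log2 1.25, SE 0.11, adjusted p = 1.04e-12, 2.38-fold). Loxl1 (Entrez gene 16949), the enzyme that crosslinks elastin, ran from 259.8 to 355.1 (median 326.8) in smoke-to-room-air mice and from 104.8 to 146.1 (median 135.3) in forced air mice (log2 1.21, SE 0.11, adjusted p = 1.76e-11), likewise with no overlap. The fibrillar collagen genes Col3a1 (log2 0.86, SE 0.09, adjusted p = 2.41e-09) and Col1a1 (log2 0.67, SE 0.11, adjusted p = 1.04e-05) and Tnc, tenascin C (log2 0.76, SE 0.14, adjusted p = 6.73e-05), rose without overlap. Mmp9, a gelatinase that neutrophils also carry, rose by 1.10 (SE 0.22, adjusted p = 0.000212). The member that fell was Timp3, an inhibitor of metalloproteases (log2 -0.28, adjusted p = 0.000657).

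Eln differed from mice of the same smoke history too, by 1.06 (adjusted p = 3.72e-10), and from mice still smoking, by 0.99 (adjusted p = 3.42e-10). Its mean was 229.9 ± 29.5 in smoke-to-forced-air mice, 240.9 ± 13.2 in 24 week smoke mice and 315.9 ± 71.02 in untreated mice (SD, n = 6 each), with each of these means under the lowest smoke-to-room-air mouse. The highest untreated mouse, at 432.0, came close to the lowest smoke-to-room-air mouse, at 432.9. After 12 weeks of smoke the Eln change against forced air had been 0.46 (adjusted p = 0.00137), and the change in smoke-to-room-air mice was larger than that one by 0.79 (adjusted p = 0.000196). For Loxl1 the difference of both changes was 0.92 (adjusted p = 4.09e-05). Untreated mice ran from 197.1 to 330.5 for Loxl1, which overlaps the smoke-to-room-air range and lies above every forced air mouse. Against untreated mice 11 of the 28 matrix and protease genes were lower and 1 higher in forced air mice. In smoke-to-room-air mice 4 of them were higher than in untreated mice and 0 lower. Col3a1 and Col1a1 had been higher at 12 weeks of smoke by 0.76 and 0.72, and their changes in smoke-to-room-air mice differed from these by 0.10 and -0.05, with no call (adjusted p = 0.699 and 0.896).

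**Figure D3:**
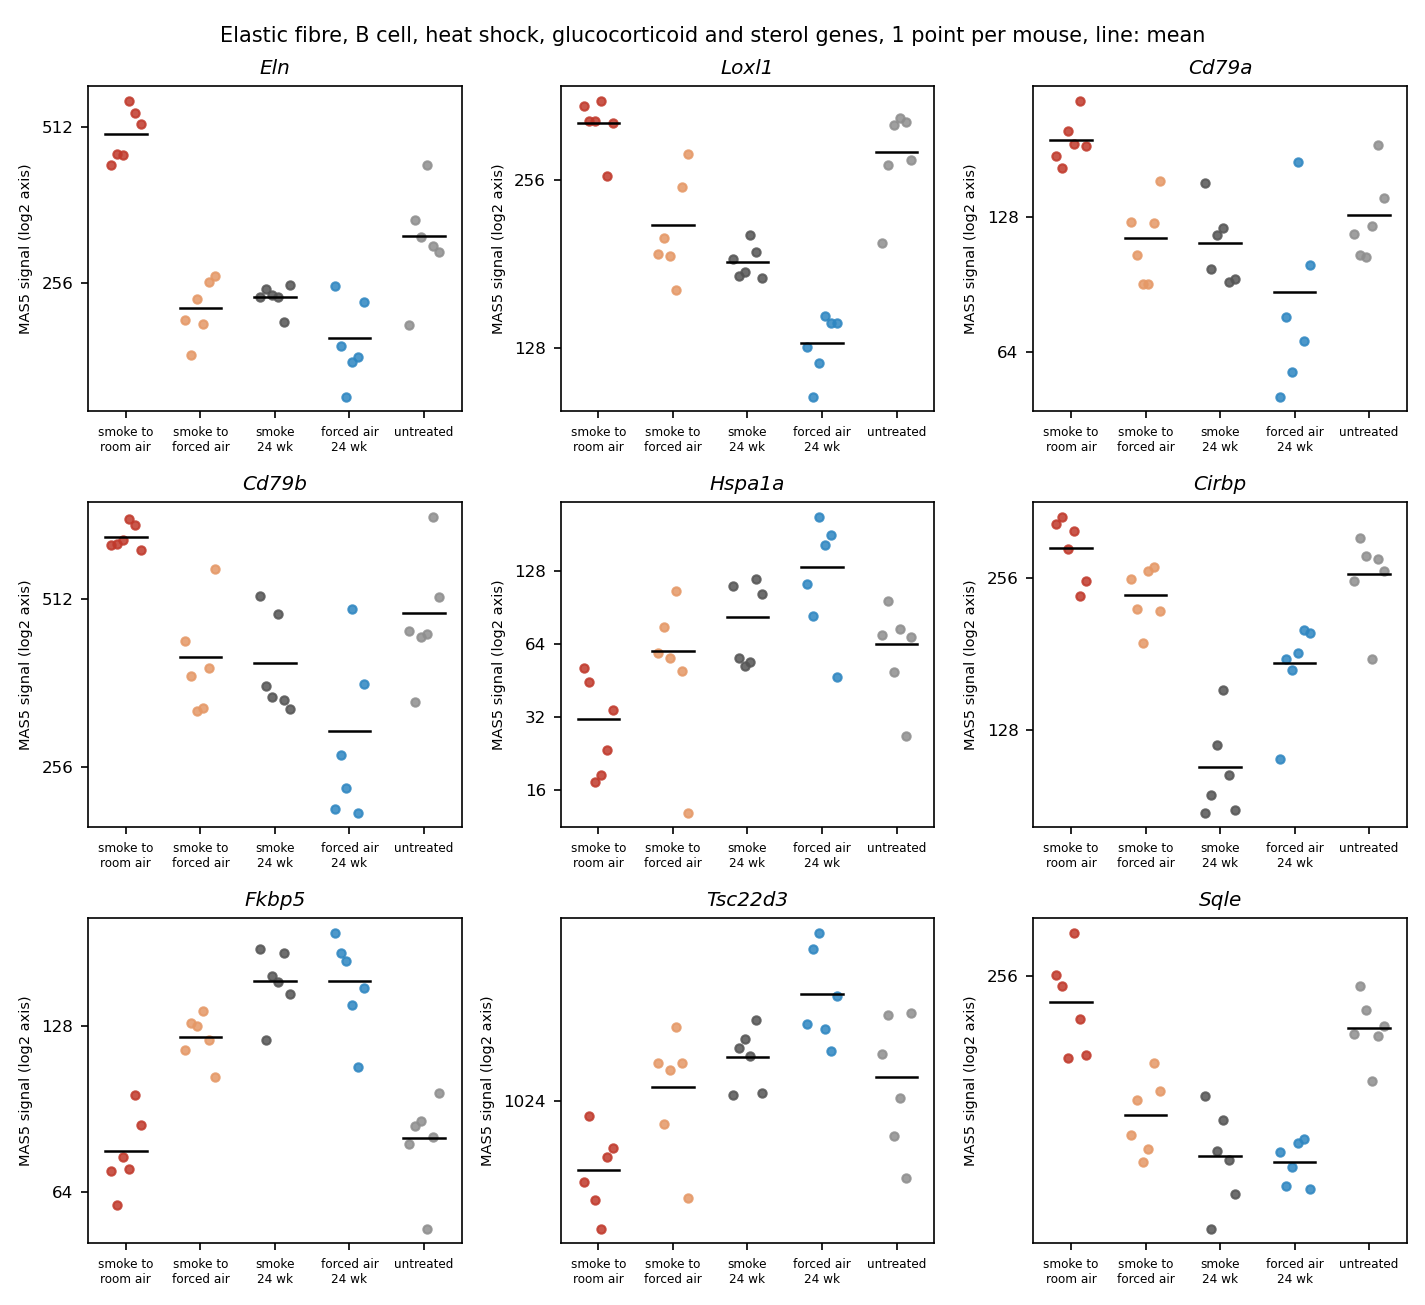
MAS5 signal (vertical axes, log2 scale) of 9 genes of elastic fibre, B cells, heat and cold response, glucocorticoid response and sterol synthesis, 1 point per mouse and a line at the mean, in the same 5 groups as for the clock genes. Eln and Loxl1 are above forced air in all 6 smoke-to-room-air mice, Fkbp5 and Tsc22d3 below it, and 1 forced air mouse reaches the smoke-to-room-air level for Cd79a.

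Of 19 B cell and plasma cell markers tested 13 rose and 0 fell (median change 0.78), against 9.81% higher and 5.31% lower over all genes. The risen markers numbered 11 to 13 when 1 array was left out and 13 without both arrays that stood apart. In whole tissue more cells of a type and more RNA per cell cannot be told apart. Cd79b (Entrez gene 15985), part of the B cell receptor, was at 624.2 to 711.0 (median 645.2) in smoke-to-room-air mice and 212.6 to 490.9 (median 252.6) in forced air mice, with no overlap (log2 1.17, SE 0.20, adjusted p = 3.3e-05). Its partner Cd79a ran from 164.7 to 231.9 (median 184.8) in smoke-to-room-air mice and from 51.07 to 169.4 (median 72.34) in forced air mice, with 5 of 6 smoke-to-room-air mice above every forced air mouse (log2 1.08, adjusted p = 6.2e-05). The signalling genes Bank1 (log2 1.09, adjusted p = 0.000277), Cd22 (log2 1.04, adjusted p = 7.56e-05) and Blk (log2 0.98, adjusted p = 4.94e-05), the IgM receptor gene Fcmr (log2 1.02, adjusted p = 0.000317), the survival factor receptor gene Tnfrsf13c (log2 0.93, adjusted p = 0.00241) and Ms4a1, a B cell surface protein (log2 0.83, adjusted p = 0.00576), rose as well. For Ms4a1 and Tnfrsf13c the highest forced air mouse exceeded every smoke-to-room-air mouse. The secreted antibody genes were less uniform. Ighm had a change of 0.45 (SE 0.39, adjusted p = 0.479) and Jchain, which joins IgM and IgA units, of 0.17 (SE 0.21, adjusted p = 0.656), neither called. Ighg3, the IgG3 heavy chain, had signals of 62.68 to 418.5 (median 191.5) in smoke-to-room-air mice and 11.09 to 425.4 (median 20.18) in forced air mice (log2 1.63, SE 0.57, adjusted p = 0.0446), a call that was lost on leaving out any 1 of 8 arrays (adjusted p up to 0.126).

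Mean Cd79b signals in the further groups lay below the lowest smoke-to-room-air mouse, at 402.4 ± 94.8 in smoke-to-forced-air, 393.6 ± 83.2 in 24 week smoke and 482.4 ± 128 in untreated mice (SD, n = 6 each). The highest untreated mouse, at 716.4, nevertheless lay above every smoke-to-room-air mouse. Against smoke-to-forced-air mice the Cd79b change was 0.72 and missed the threshold (adjusted p = 0.0657), and 2 of the 19 markers were called higher there. Cd79b had a change of 0.14 at 12 weeks of smoke, not called (adjusted p = 0.668), and the change in smoke-to-room-air mice was larger by 1.02 (adjusted p = 0.0117). Other members did rise with smoke. Of the 19 markers 7 were higher and 1 lower at 12 weeks of smoke, and 5 were higher and 1 lower at 24 weeks of smoke. The difference from the 12-week change was called higher for 5 of the 19 and lower for 1. Without forced air replicate 4, the highest forced air array over this list, the markers called higher numbered 13 of 19.

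Of 24 T cell and cytotoxic cell markers 7 rose and 0 fell (median 0.38; 5 to 10 when 1 array was left out), among them Cd3d of the T cell receptor complex (log2 0.64, SE 0.15, adjusted p = 0.00198), Thy1 (log2 0.54, adjusted p = 0.0106), the killer cell receptor gene Klrd1 (log2 0.48, adjusted p = 0.00851) and the costimulatory receptor gene Cd27 (log2 0.44, adjusted p = 0.00474). At 12 weeks of smoke 9 of the 24 T cell markers had been higher and 0 lower, and 0 were called against smoke-to-forced-air mice. Of 20 MHC class II and dendritic cell genes 10 rose and 0 fell (median 0.31). Of these 20, 12 had been higher and 0 lower at 12 weeks, and 1 was higher and 0 lower against smoke-to-forced-air mice. H2-Ab1, a chain of MHC class II, was at 765.8 to 976.7 (median 837.7) in smoke-to-room-air mice and 550.6 to 670.4 (median 597.9) in forced air mice, with no overlap (log2 0.48, SE 0.08, adjusted p = 4.4e-05). H2-DMa, which loads peptides (log2 0.71, adjusted p = 3.72e-05), the MHC class II gene H2-Ob (log2 0.83, adjusted p = 0.00116) and Ccr7, the lymph node homing receptor (log2 0.59, adjusted p = 8.35e-05), rose too.

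Of 15 monocyte and interstitial macrophage markers 6 rose and 2 fell (median 0.29). At 12 weeks of smoke 10 of them had been higher and 0 lower, and 0 were called against smoke-to-forced-air mice. Cx3cr1, the fractalkine receptor gene, ran from 68.87 to 114.04 (median 84.41) in smoke-to-room-air mice and from 18.72 to 43.20 (median 33.06) in forced air mice, with no overlap (log2 1.08, SE 0.16, adjusted p = 2.43e-06). The monocyte chemokine receptor gene Ccr2 rose by 0.80 (SE 0.15, adjusted p = 8.35e-05) and Plac8 by 0.73 (adjusted p = 0.000477), both without overlap, and F13a1 by 0.62 (adjusted p = 0.000247). Of 16 neutrophil markers 6 rose and 0 fell (median 0.28). Only 9 of the 16 had a change above 0, the lowest change was -0.50, and 0 were called against smoke-to-forced-air mice. The calprotectin genes S100a8 (log2 0.69, SE 0.20, adjusted p = 0.0133) and S100a9 (log2 0.70, SE 0.20, adjusted p = 0.0135) rose without overlap, and S100a9 lay at 2081 to 2344 (median 2215) in smoke-to-room-air mice and 1013 to 1760 (median 1376) in forced air mice. Their adjusted p rose to 0.0459 and 0.0494 when 1 array was left out. Within the first title number range neither was called (adjusted p = 0.15 and 0.129). The granulocyte colony stimulating factor receptor gene Csf3r had a change of 0.54 (adjusted p = 0.04) that was lost on leaving out any 1 of 7 arrays (adjusted p up to 0.104). The medians of these 4 lists stood against 0.01 over all genes, and their counts against 9.81% higher and 5.31% lower.

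Interferon response genes rose in 9 of 23 cases, and 0 fell (median 0.33, and 7 to 12 rose when 1 array was left out). Of all genes 9.81% were called higher and 5.31% lower. Against untreated mice 8 of the 23 were lower and 0 higher in forced air mice. In smoke-to-room-air mice 1 of them was higher than in untreated mice and 0 lower. Mx1, an antiviral GTPase, was at 96.10 to 222.7 (median 126.3) in smoke-to-room-air mice and 37.89 to 86.10 (median 44.76) in forced air mice. The groups did not overlap (log2 1.19, SE 0.20, adjusted p = 2.04e-05). Oas1a (log2 0.65, adjusted p = 0.00112), Oas3 (log2 0.68, adjusted p = 0.0221) and Igtp (log2 0.66, adjusted p = 0.0193) were the next in size among the list, and the calls of Oas3 and Igtp were each lost on leaving out certain single arrays (adjusted p up to 0.0831 and 0.0642). Gbp6, a guanylate-binding protein outside the list, rose by 1.18 (SE 0.19, adjusted p = 1.81e-05). None of the 23 genes was called against smoke-to-forced-air mice, in which the Mx1 mean was 104.1 ± 31.3 (SD, n = 6), and 6 of the 23 were called higher in smoke-to-forced-air than in forced air mice (1.46% of all genes).

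Of 22 cholesterol and fatty acid synthesis genes 10 rose, 0 fell and 12 were not called (median 0.23, and 7 to 11 rose when 1 array was left out). Of all genes 9.81% were called higher and 5.31% lower. Against untreated mice 5 of the 22 were lower and 0 higher in forced air mice. In smoke-to-room-air mice 1 of them was higher than in untreated mice and 0 lower. Sqle, squalene epoxidase, was at 209.8 to 284.3 (median 240.1) in smoke-to-room-air mice and 152.4 to 172.1 (median 163.7) in forced air mice. All smoke-to-room-air mice lay above all forced air mice (log2 0.51, SE 0.07, adjusted p = 2.12e-06). Untreated mice ran from 198.1 to 249.9 for Sqle. Fdft1, squalene synthase (log2 0.52, adjusted p = 0.000105), Fdps, which makes its substrate (log2 0.48, adjusted p = 0.000599), Mvd (log2 0.42, adjusted p = 0.00212), Dhcr7 (log2 0.42, adjusted p = 0.000562) and Msmo1 (log2 0.41, adjusted p = 0.00552) rose too. Against smoke-to-forced-air mice 3 of the 22 were higher, Sqle (log2 0.37, adjusted p = 0.00384), Fdft1 (log2 0.43, adjusted p = 0.00899) and Dhcr7 (log2 0.37, adjusted p = 0.0201). At 12 weeks of smoke 2 had been higher and 1 lower.

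**Figure D4:**
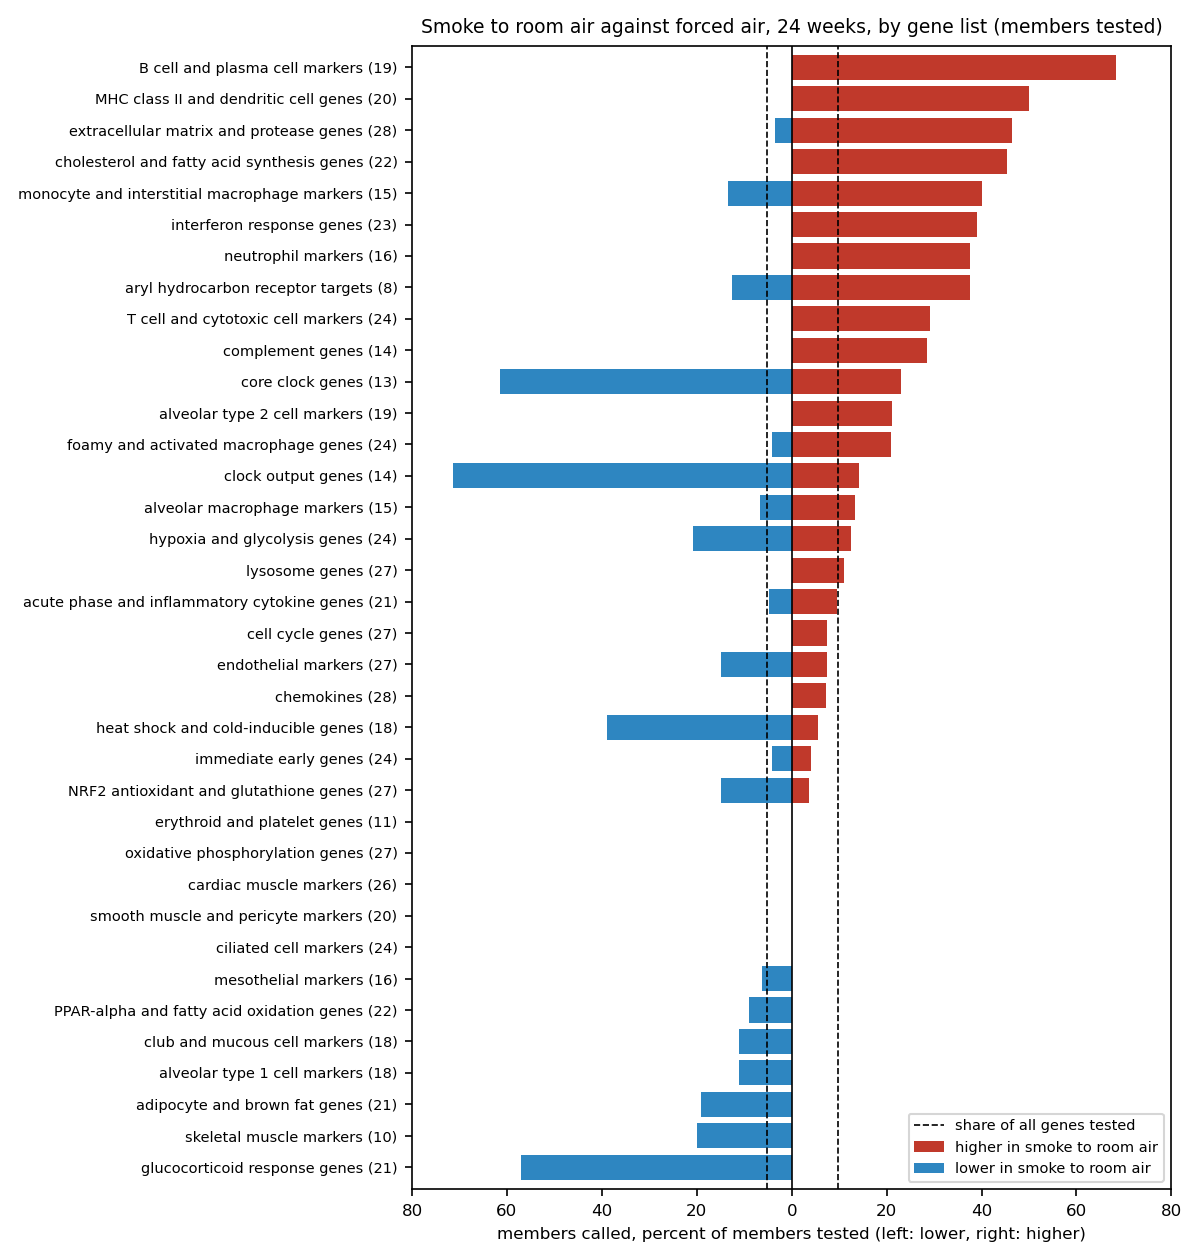
Members called higher (right) and lower (left) in smoke-to-room-air against forced air mice as a percentage of the members tested (horizontal axis) in each of 36 gene lists, with the number tested in brackets, and dashed lines at the shares of all genes, 9.81% higher and 5.31% lower. B cell markers reach 68.4% higher, and clock output genes 71.4% lower.

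Among the remaining large changes, Fam124b had the largest rise after Arntl, at 82.05 to 153.8 (median 107.7) in smoke-to-room-air mice and 12.66 to 23.54 (median 14.66) in forced air mice (log2 1.99, SE 0.19, adjusted p = 4.33e-11). Spon2, a secreted matrix protein, was called present on all 6 smoke-to-room-air arrays and on 1 forced air array (log2 1.27, SE 0.15, adjusted p = 3.28e-08). Neither overlapped between groups, and both were also higher than in smoke-to-forced-air mice, by 1.24 (adjusted p = 2.65e-05) and 1.09 (adjusted p = 4.21e-06). Avpr1a, a vasopressin receptor gene, ran from 41.00 to 69.05 (median 54.61) in smoke-to-room-air mice and from 14.51 to 18.74 (median 14.97) in forced air mice (log2 1.15, SE 0.11, adjusted p = 5.57e-11), and untreated mice had a mean of 48.94 ± 16.5 (n = 6). Adm, the vasodilator adrenomedullin, rose by 1.11 (SE 0.15, adjusted p = 2.23e-07). Adamts4, an aggrecan-cleaving protease, rose by 1.32 (SE 0.19, adjusted p = 1.17e-06) with 5 of 6 smoke-to-room-air mice above every forced air mouse. The leukocyte gene Lst1 (log2 1.18, adjusted p = 3.83e-06), the bacterial lipopeptide receptor gene Tlr1 (log2 1.197, adjusted p = 5.06e-05) and the heavy chain segment Ighv14-2 (log2 1.22, adjusted p = 5.06e-05), whose probes may detect related segments, were further large rises. Outside the lists above, the falls included Cys1, which encodes cystin (log2 -1.08, SE 0.11, adjusted p = 9.99e-11), and Bpifa1, an airway secretory protein (log2 -1.41, SE 0.45, adjusted p = 0.0243), whose call was lost without forced air replicate 3 or 6 or smoke-to-room-air replicate 1 or 4 (adjusted p up to 0.0747).

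Genes called after 12 weeks of smoke were looked up in smoke-to-room-air mice, and the 12-week comparison shares no mouse with the one above. They were picked by their 12-week change, so that change tends to be the larger one by the choice alone. A change in the same direction cannot be credited to smoke history alone, since the end of the chamber procedure differs with it. Smoke-to-forced-air mice, which went on with forced air, had 219 genes higher and 79 lower than forced air mice at 24 weeks. Smoke at 12 weeks against forced air called 3456 genes (23%), 1880 higher (12.5%) and 1576 lower (10.5%). Of the 1880, 510 (27.1%) were called higher and 50 (2.66%) lower in smoke-to-room-air mice, and their median change was 0.12 in smoke-to-room-air mice and 0.40 at 12 weeks. Of the 1576, 162 (10.3%) were called lower and 97 (6.15%) higher, with medians of -0.03 in smoke-to-room-air mice and -0.29 at 12 weeks. Among the 11574 genes not called at 12 weeks, 7.5% were called higher and 5.06% lower in smoke-to-room-air mice. The difference of both changes was itself called for 2140 genes (14.2%), 1095 higher (7.29%) and 1045 lower (6.95%).

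Of 30 genes at least 4-fold higher at 12 weeks 8 were called higher in smoke-to-room-air mice (9.81% of all genes were). The 30 had a median change of 0.40 in smoke-to-room-air mice and 2.44 at 12 weeks. By mouse, the median difference from the forced air mean was 1.14 in smoke-to-room-air replicate 4 and 0.12 to 0.40 in the others of its group. Forced air mice themselves ran from -0.29 to 0.33. The count of 8 was not repeated without replicate 4. By the test of the difference the change was smaller in smoke-to-room-air mice for 27. The 30 were picked by their 12-week change, which also enters this difference, so the choice itself favours a smaller later change. Mmp12, macrophage elastase, was at 67.32 to 238.7 (median 89.94) in smoke-to-room-air mice and 37.90 to 126.3 (median 62.66) in forced air mice, with a change of 0.59 that missed the threshold (SE 0.24, adjusted p = 0.0857) and a change at 12 weeks of 4.04. The macrophage genes Gpnmb (log2 0.23, adjusted p = 0.379) and Ctsk (log2 0.28, adjusted p = 0.23), the zinc transporter gene Slc39a2 (log2 0.07, adjusted p = 0.785), the chemokine gene Ccl3 (log2 -0.13, adjusted p = 0.78) and the acute phase genes Saa3 (log2 0.12, adjusted p = 0.857) and Orm1 (log2 -0.35, adjusted p = 0.558) were not called either. Saa3 ran from 58.60 to 446.5 (median 103.2) in smoke-to-room-air mice and from 72.80 to 239.9 (median 90.56) in forced air mice, and without replicate 4, the highest mouse, its change was -0.24 (adjusted p = 0.656). Fabp1 and Asgr1, which had fallen by 2.13 and 1.48 at 12 weeks, had changes of -0.21 (adjusted p = 0.298) and 0.03 (adjusted p = 0.916).

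By list, 5 of 24 foamy and activated macrophage genes were higher and 1 lower in smoke-to-room-air mice, against 17 higher and 2 lower at 12 weeks. The same counts were 3 and 0 against 22 and 0 for 27 lysosome genes, 2 and 0 against 21 and 1 for 28 chemokines, 2 and 1 against 16 and 0 for 21 acute phase and inflammatory cytokine genes, 2 and 0 against 22 and 0 for 27 cell cycle genes, and 4 and 0 against 7 and 0 for 14 complement genes. When 1 array was left out, the members called higher in smoke-to-room-air mice numbered 5 to 7 for the foamy macrophage list, 1 to 5 for lysosome genes, 0 to 3 for chemokines, 1 to 3 for the acute phase list, 0 to 3 for cell cycle genes and 2 to 6 for complement genes, and without smoke-to-room-air replicate 4 the lysosome count was 1, the chemokine and cell cycle counts 0 and the complement count 2. Shares near 9.81% higher are those of all genes in this comparison. Members called higher in smoke-to-room-air mice included the scavenger receptor gene Msr1 (log2 0.60, adjusted p = 0.00362), Itgax (log2 0.39, adjusted p = 0.00274), Cd68 (log2 0.41, adjusted p = 0.00521) and Trem2, a lipid-sensing receptor. Trem2 was not called present on any forced air array and was present on 4 of 6 smoke-to-room-air arrays. Its estimated change was a 1.49-fold rise in smoke-to-room-air mice (adjusted p = 0.000401), with log2 0.51 to 0.63 when 1 array was left out. The size of this change is uncertain, because the forced air signals were not above background. The chemokine gene Cxcl5 (log2 1.21, SE 0.35, adjusted p = 0.0138) rested on replicate 4, at 529.2 where the group's median was 20.15, and was not called without it (log2 0.56, adjusted p = 0.0829). Ccl9 (log2 0.41, adjusted p = 0.0146), the complement genes Cfb (log2 0.47, adjusted p = 0.0428) and C3ar1 (log2 0.43, adjusted p = 0.0272) and the cell cycle gene Bub1b (log2 0.29, adjusted p = 0.0479) also lost their calls without that replicate (adjusted p of 0.0718, 0.256, 0.121 and 0.16) and without certain others. The complement genes Hc (log2 0.34, adjusted p = 0.000141) and C6 (log2 0.38, adjusted p = 0.00196) kept theirs.

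**Figure D5:**
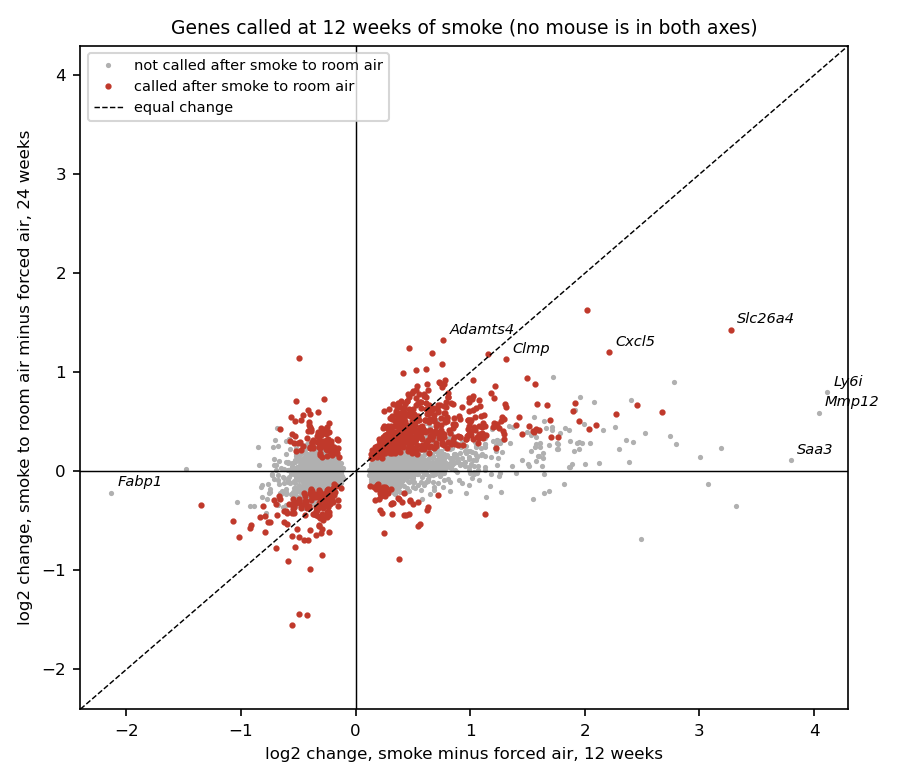
Log2 change in smoke-to-room-air against forced air mice at 24 weeks (vertical axis) and in smoke against forced air at 12 weeks (horizontal axis) for the genes called at 12 weeks, with those called in smoke-to-room-air mice in red and a dashed line of equal change. Most genes lie nearer to 0 on the vertical axis, with a median of 0.12 for the 1880 genes that had risen. Slc26a4 and Cxcl5 are among the labelled genes above 1.

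Some genes were changed in the same direction as at 12 weeks of smoke. Clmp, a cell adhesion gene, had a change of 1.14 (SE 0.17, adjusted p = 3.83e-06) in smoke-to-room-air mice and 1.31 at 12 weeks, and the groups did not overlap. Slc26a4, the anion exchanger pendrin, rose by 1.43 (SE 0.30, adjusted p = 0.000621), with 62.34 to 476.4 (median 70.33) in smoke-to-room-air mice and 14.80 to 71.77 (median 25.89) in forced air mice. Replicate 4 was the highest, the change ranged from 1.02 to 1.63 when 1 array was left out, and it had been 3.27 at 12 weeks. On the lower side, Shisa9 had a change of -0.78 (adjusted p = 3.83e-06), with -0.70 at 12 weeks, the follistatin gene Fst of -0.76 (adjusted p = 0.000196), with -0.53, the glutamate receptor gene Gria3 of -0.69 (adjusted p = 6.49e-06), with -0.42, and 9330159F19Rik of -0.99 (adjusted p = 6.81e-08), with -0.40. The differences of these changes were not called for Clmp, Shisa9, Fst and Gria3 (adjusted p = 0.705, 0.813, 0.528 and 0.268). The genes were picked for calls in the same direction in both comparisons, which favours a small difference. For Slc26a4 and 9330159F19Rik, whose changes lay further apart, the test of the difference is not given here.

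Targets of the aryl hydrocarbon receptor, the sensor of smoke hydrocarbons, were mixed, with 3 of 8 higher and 1 lower. Of all genes 9.81% were called higher and 5.31% lower. Cyp1b1 was at 200.03 to 264.8 (median 204.0) in smoke-to-room-air mice and 127.2 to 197.7 (median 151.7) in forced air mice, with no overlap (log2 0.44, SE 0.10, adjusted p = 0.00167), against a change of 1.196 at 12 weeks. Cyp1a1 had a change of 0.48 that missed the threshold (SE 0.20, adjusted p = 0.0925). The receptor gene Ahr itself was higher by 0.24 (adjusted p = 0.00356). Its repressor gene Ahrr, not called present on any forced air array, had an estimated 1.199-fold rise of uncertain size (adjusted p = 0.0174). The log2 change of Ahrr was 0.23 to 0.31 when 1 array was left out. Its call was lost without forced air replicate 2 or 5 or smoke-to-room-air replicate 1 (adjusted p up to 0.0558). The retinol enzyme gene Lrat fell by 0.40 (adjusted p = 0.0118). Of 27 NRF2 and glutathione genes 1 rose (3.70%) and 4 fell (14.8%), against the same shares of all genes. The falls were Gsta2 (log2 -0.51, adjusted p = 0.000229), Gsta3 (log2 -0.32, adjusted p = 0.0131, and 0.0601 without smoke-to-room-air replicate 4), Osgin1 (log2 -0.28, adjusted p = 0.00959) and Ephx1 (log2 -0.26, adjusted p = 0.000992). Hmox1, heme oxygenase, had a change of 0.32 and was not called (adjusted p = 0.0601).

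Against mice that went on smoking to 24 weeks, smoke-to-room-air mice differed in 2734 genes (18.2%), 1371 higher (9.12%) and 1363 lower (9.07%). The largest falls were Saa3 (log2 -3.46, adjusted p = 2.8e-12), Ly6i (log2 -2.96, adjusted p = 3.79e-10), Orm1 (log2 -2.81, adjusted p = 2.56e-08), Mmp12 (log2 -2.70, adjusted p = 1.34e-12) and Gpnmb (log2 -2.58, adjusted p = 3.23e-17). Gpnmb, a macrophage glycoprotein, averaged 142.7 ± 26.1 in smoke-to-room-air mice and 925.9 ± 82.9 in 24 week smoke mice (SD, n = 6 each). Of 27 lysosome genes 23 were lower, and of 28 chemokines 21 were lower and 1 higher. The largest rises were Arntl (log2 1.53), Spon2 (log2 1.51), the immediate early gene Nr4a1 (log2 1.47), Fam124b (log2 1.43) and Ifitm6 (log2 1.40), with adjusted p of 1.53e-11, 8.61e-11, 0.000179, 7.64e-08 and 7.89e-07. This comparison too shares the smoke-to-room-air arrays. Of 22 cholesterol and fatty acid synthesis genes 9 were higher, and of 20 smooth muscle and pericyte markers 12.

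No gene was called among 24 ciliated cell markers, 20 smooth muscle and pericyte markers, 27 oxidative phosphorylation genes, 26 cardiac muscle markers and 11 erythroid and platelet genes by limma's test, whereas over all genes 15.1% were called and 4230 had an unadjusted p under 0.05. For the lists that follow, the shares of all genes were 9.81% higher and 5.31% lower. Of 19 alveolar type 2 cell markers 4 rose and 0 fell, led by Egfl6 (log2 0.38, adjusted p = 0.000603) and the surfactant lipid transporter gene Abca3 (log2 0.37, adjusted p = 4.84e-06). Of 18 alveolar type 1 markers 2 fell, Timp3 and Rtkn2 (log2 -0.22, adjusted p = 0.00219). Among 18 club and mucous cell markers Bpifa1 and Fmo2 (log2 -0.34, adjusted p = 0.000285) fell. Of 27 endothelial markers 2 rose and 4 fell, among them Sox18 (log2 0.47, adjusted p = 0.00746), the vasoconstrictor gene Edn1 (log2 -0.71, adjusted p = 0.00251), the VEGF receptor gene Flt1 (log2 -0.46, adjusted p = 6.81e-06) and the lymphatic gene Lyve1 (log2 -0.41, adjusted p = 0.000911). Wt1 was the 1 of 16 mesothelial markers that fell (log2 -0.54, adjusted p = 3.52e-05). Of 15 alveolar macrophage markers 2 rose, among them the scavenger receptor gene Marco (log2 0.61, adjusted p = 0.0179), which lost its call without forced air replicate 2 or 3 (adjusted p up to 0.0686), and 1 fell.

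Of 24 hypoxia and glycolysis genes 3 rose (12.5%) and 5 fell (20.8%), against 9.81% and 5.31% of all genes. Between 2 and 5 fell when 1 array was left out, the fewest without forced air replicate 2. The lists that follow stand against the same shares of all genes. Adm was higher and Pfkfb3 (log2 -0.47, adjusted p = 2.44e-07), Egln3 (log2 -0.40, adjusted p = 0.0358) and P4ha1 (log2 -0.39, adjusted p = 0.000931) were lower, with the call of Egln3 lost on leaving out any 1 of 6 arrays (adjusted p up to 0.11). Of 24 immediate early genes Ier2 rose (log2 0.45, adjusted p = 0.0104) and Maff fell (log2 -0.61, adjusted p = 0.00166), while Fos had a change of 0.23 (adjusted p = 0.29). Of 22 PPAR-alpha and fatty acid oxidation genes 2 fell, against 5.31% of all genes, and 0 to 2 did when 1 array was left out. They were Angptl4 (log2 -0.78, adjusted p = 0.0155), whose call was lost without smoke-to-room-air replicate 1 (adjusted p = 0.0709), and Pdk4 (log2 -0.46, adjusted p = 0.0267), which lost it without forced air replicate 2 or 3 or smoke-to-room-air replicate 1, 4 or 5 (adjusted p up to 0.109). Of 10 skeletal muscle markers 2 fell, and 0 to 3 did when 1 array was left out. Atp2a1 (log2 -0.33, adjusted p = 0.0183) lost its call without replicate 4 of either group or smoke-to-room-air replicate 5 (adjusted p up to 0.082), and Actn3 (log2 -0.28, adjusted p = 0.0274) without any 1 of 5 arrays (adjusted p up to 0.0709). Of 21 adipocyte and brown fat genes 4 fell (median -0.47), 1 to 6 did when 1 array was left out, and without both arrays that stood apart 1 did. Dgat2, which makes triglyceride, was at 150.5 to 189.6 (median 171.4) in smoke-to-room-air mice and 237.6 to 881.1 (median 251.5) in forced air mice, where replicate 4 was the highest (log2 -0.82, SE 0.18, adjusted p = 0.000706). The brown fat gene Ucp1 reached 175.3 in that forced air mouse, where the group's median was 9.76. Cidec, Plin4 and Cox8b lost their calls without it, at adjusted p of 0.302, 0.258 and 0.242, and without certain other arrays.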

How the data were processed

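RNA of the small lung lobe (50 ng per mouse) was amplified with NuGEN Ovation V2 and hybridised to 1 Affymetrix Mouse 430 2.0 array per mouse, per the labels' protocols. The deposited intensity values are linear MAS5 signals per probe set, which the authors scaled, since each array has a 2% trimmed mean of 150, and detection p-values were deposited beside them. MAS5 is the tool named in the submitters' processing notes. Of 45101 probe sets, 35615 were kept, namely those detected (p under 0.05) in 1 group or more on 50% of its arrays. A gene is its brightest kept probe set with 1 symbol (15030 genes), and 9160 probe sets have no symbol and 932 several. The platform annotation can be old. A linear model with 1 mean per group over all 53 arrays was fitted to log2(signal + 16) with limma 3.58.1 in R 4.3.3 (eBayes with a trend, two-sided, Benjamini-Hochberg adjustment). Tables came from pandas 2.3.3 and numpy 2.4.6, and figures from matplotlib 3.10.9, under Python 3.11.15.

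Samples were grouped by their labels, and their number limits the precision. Nothing beyond 1 array per mouse is stated about separate cages, so p-values measure the spread between these mice. The text names the 15 largest rises and falls, up to 4 called members of each of 36 gene lists, a panel of 37 genes, and the largest changes of the further comparisons, and 18 genes were added after their values were seen. The comparison, lists and panel were chosen with earlier results of these data known. Alternatives covered normalization, pseudocount, filter, probe set choice, title numbers, 3′/5′ ratios, the groups in the fit and single arrays. The fit was tested on simulated data.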

Additional observations from a re-analysis of the deposited data

Results flagged for a closer look

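In 27 of 324 groups of 6 signals examined, 1 mouse lay far from the other 5 by Dixon's test, which chance does in about 1 group in 20. Smoke-to-room-air replicate 4 was the highest of its group for Cxcl5 (529.2), Ly6i (608.7), Slc26a4 (476.4), Saa3 (446.5), Cfb (381.5), Mmp12 (238.7), Orm1 (184.8), Ier2 (127.5) and Bub1b (64.99), and the lowest for Per3 (304.9) and Hlf (61.53). Forced air replicate 4 was the highest of its group for the fat genes Dgat2 (881.1), Cidec (235.4), Cox8b (97.25) and Plin4 (89.18) and for Orm1 (381.8), Gbp6 (184.7) and Mx1 (86.10), and the lowest for Gsta3 (914.7) and Asgr1 (36.71). Of the other mice, smoke-to-room-air replicate 6 was the highest for Klf15 (209.9) and replicate 5 the lowest for Loxl1 (259.8). Forced air replicate 1 was the highest for Adamts4 (56.06) and the lowest for Cirbp (112.1), replicate 5 the lowest for Pdk4 (903.4) and Igtp (176.5), and replicate 6 the lowest for Hspa1b (1059).

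After the same 12 weeks of smoke, mice that went on in room air differed from mice that went on in forced air in 146 genes. The change in smoke-to-room-air mice differed from that at 12 weeks of smoke in 2140 genes, by limma's test of the difference. Of 7205 kept probe sets without a single gene name, 898 were called against forced air, 384 higher and 514 lower.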

How the results depend on the processing

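Leaving out single arrays gave 1741 to 2312 genes called against forced air (2273 with all), 92 to 151 against smoke-to-forced-air mice (146), 2333 to 2690 against continued smoke (2734), 1813 to 2196 for the difference from the 12-week change (2140) and 492 to 750 for 12-week genes called the same way (672). The lowest count of 92 came without smoke-to-forced-air replicate 4, and that of 492 without smoke-to-room-air replicate 4. A minimum absolute log2 change of 1 left 2.02% of the genes called against forced air (31 higher, 15 lower), 8.90% against smoke-to-forced-air mice (6 higher, 7 lower), 3.84% against continued smoke (18 higher, 87 lower), 7.20% for the difference from the 12-week change and 0.744% of the 12-week genes (5). Testing all kept probe sets gave 4380 (2394 higher, 1986 lower, a more even split than 1475 to 798), 225, 4945, 3787 and 1081, in the order above. Title number ranges as a block gave 260 against smoke-to-forced-air mice, and leaving out the arrays of the third range, chosen after seeing the data, gave 87. Within the second range 195 were called against forced air, with fewer arrays. Other settings gave 1597 to 3077 against forced air. No paired analysis was possible because replicate numbers were given in accession order.

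Of the named genes that were called, 111 were called in every fit that left out 1 array and 39 under every alternative, and 119 were without smoke-to-room-air replicate 4. Among the called genes 1 changed sign, Atp6v1b2 with the probe set of largest spread (-0.0139). The sign also turned for genes that were not called. Leaving out single arrays gave log2 changes from -0.0068 to 0.0235 for Sftpc, -0.270 to 0.0806 for Ccl3, -0.0667 to 0.108 for Asgr1, -0.729 to 0.148 for Orm1, -0.243 to 0.327 for Saa3 and -0.0158 to 0.125 for Slc39a2. Sftpc was at -0.0142 with title number as covariate, -0.0118 with its ranges as a block, -0.0025 with 3′/5′ ratios, -0.0347 within the first range and -0.0018 without the third. Within the first range Ccl3 was at 0.223, Asgr1 at -0.0440, Orm1 at 0.251, Fabp1 at 0.130 and Jchain at -0.0141, and within the second Saa3 was at -0.327 and Mmp12 at -0.0082. Without the third range Ccl3 was at 0.0242, and without both arrays that stood apart Saa3 was at -0.0316. The causes were not tested.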
